A study of Caenorhabditis elegans with 17 samples.

Results

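Astacins are secreted or membrane-bound zinc metalloproteases that cut extracellular proteins, and the nematode Caenorhabditis elegans carries a large family of them under the name nas, for nematode astacin. The analysis covers all 35 genes, of 26786 in the FPKM table, whose public name is nas- followed by a number. FPKM is the number of sequenced fragments scaled by transcript length and by the mapped fragments of the library, so levels of different genes can be set side by side on this scale. A gene was tested where its FPKM was at least 1 in at least 4 of 17 libraries, which held for 19 nas genes and for 13084 genes in all, and 16 nas genes were not tested.

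The libraries came from whole day 1 adults that carried rmIs133 [unc-54p::Q40::YFP], a transgene that puts polyglutamine joined to yellow fluorescent protein under the promoter of unc-54, a myosin gene of body wall muscle. Every animal was raised from the egg for 96 h at 20 °C on Escherichia coli HT115 (DE3) that fed it double-stranded RNA, and the groups differed in the clone: ash-2 (4 libraries), hsf-1 (4 libraries), ash-2 + hsf-1 together (4 libraries) and L4440, the control vector (5 libraries). In both groups fed the ash-2 clone, the parents had been raised on it too, a difference that any comparison with hsf-1 or L4440 animals includes. ash-2 encodes a subunit of a histone methyltransferase complex, and the product of hsf-1 is a transcription factor of the heat shock response. The labels call the libraries biological replicates. They do not say whether these came from separate cultures, so p-values measure the spread between libraries, which may in part be technical.

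Astacins are made as inactive proenzymes, and in nematodes several of them act on the cuticle and other extracellular matrices. nas-36 and nas-37 are known for the shedding of the old cuticle at each molt, nas-38 for molt-associated quiescence, nas-6 and nas-7 for the pharyngeal grinder, and hch-1 for hatching from the eggshell. The family is commonly divided by domain structure into subgroups that follow the numbers. Members 1 to 5 are the plain catalytic type, 6 to 15 carry ShKT domains, 16 to 32 carry EGF-like and CUB domains, 33 to 38 add a thrombospondin-type domain, and nas-39 is the member most like tolloid and BMP1.

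The transcripts of the RNAi targets were measured first. The ash-2 transcript averaged 5.46 ± 3.65 FPKM in ash-2 animals and 8.47 ± 3.42 FPKM in ash-2 + hsf-1 animals (SD, n = 4 each), against 16.4 ± 1.89 FPKM in L4440 animals (n = 5). The hsf-1 transcript averaged 12.5 ± 3.55 FPKM in hsf-1 animals and 9.74 ± 2.60 FPKM in ash-2 + hsf-1 animals, against 29.9 ± 2.92 FPKM in L4440 animals. Total counts are not in the table. A rough estimate from low FPKM values put an FPKM of 1 in a tested nas gene at 21.3 to 65.3 fragments. In 4 libraries (ash-2 replicates 1 and 3, hsf-1 replicate 4 and ash-2 + hsf-1 replicate 3), 9401 to 10745 genes reached an FPKM of 1, against 11170 to 13066 genes in the other 13. Results are therefore also given without these 4 libraries.

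In L4440 animals nas-11 was the most abundant member, at 51.5 ± 13.6 FPKM, followed by nas-9 at 24.2 ± 1.12, nas-37 at 11.9 ± 3.51, nas-20 at 10.5 ± 4.04, nas-33 at 6.09 ± 1.53 and nas-30 at 3.79 ± 0.996 FPKM (SD, n = 5). The ranges of nas-11 and nas-9 did not overlap, and neither did those of nas-9 and nas-37. The neighbours below them in this order (nas-37 and nas-20, nas-20 and nas-33, nas-33 and nas-30) had overlapping ranges. nas-11 alone made up 34.9 to 42.9% of the summed nas FPKM in L4440 libraries. The order differed in 3 of the 4 libraries with few detected genes: nas-3 was the highest member in ash-2 replicates 1 and 3, and nas-9 in hsf-1 replicate 4. In the other 14 libraries nas-11 led.

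The 16 members that were not tested were low in every library. nas-18 was listed at 0 throughout. nas-2, nas-12, nas-13, nas-17 and nas-19 peaked at 0.06198, 0.605, 0.388, 0.258 and 0.115 FPKM, each in its highest library. nas-21, nas-23, nas-24, nas-27, nas-28 and nas-29 peaked at 0.609, 0.4598, 0.249, 0.881, 0.755 and 0.5897 FPKM. The highest values of nas-4, nas-6, nas-25 and nas-36, which reached an FPKM of 1 in 2 libraries each, were 1.72, 1.799, 1.47 and 1.101 FPKM.

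The summed level of all 35 members was 27.3 to 86.7 FPKM in ash-2 libraries, 67.3 to 206 in hsf-1 libraries and 61.3 to 195 in ash-2 + hsf-1 libraries, against 100.5 to 167 in L4440 libraries. Every ash-2 library lay under every L4440 library, while the other RNAi groups overlapped with L4440. Because whole animals were pooled, fewer cells of a type and less RNA per cell cannot be told apart in any of these values.

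Of the 35 genes, 12 lie on chromosome V, 8 on X, 5 on II, 4 on IV, and 3 each on I and III (WBcel235, RefSeq annotation). On chromosome V, 2 short clusters of members had no coding gene between them. nas-18, nas-17 and nas-19 were separated by 1198 and 527 bases, and none of them reached an FPKM of 1 in any library. nas-20, nas-21 and nas-22 were separated by 254 and 799 bases, and they differed in level: nas-20 averaged 10.8 FPKM over all 17 libraries, nas-22 averaged 0.598 FPKM and nas-21 averaged 0.160 FPKM. The strand setting of the fragment assignment is not known here. The largest exon overlaps of a tested member with another coding gene were 9.17% of the exon bases of nas-11, with smf-2 on the other strand (0.0113 FPKM on average), and 7.93% of those of nas-39, with F38E9.1 on the same strand. F38E9.1 averaged 4.93 FPKM over the 17 libraries and nas-39 averaged 1.29 FPKM. How the fragments of the shared bases were assigned was not tested.

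The first test asked which members differed among the 4 RNAi groups. In limma's F test on log2(FPKM + 0.5), 11 of the 19 tested nas genes passed at an adjusted p under 0.05, against 31.7% of all genes tested. They were nas-1, nas-3, nas-8, nas-9, nas-10, nas-15, nas-30, nas-32, nas-33, nas-37 and nas-38. nas-1 was tested only because libraries with hsf-1 RNAi reached an FPKM of 1, so it adds nothing to the 11. The smallest adjusted p belonged to nas-3 (2.79e-07) and nas-9 (7.07e-06). The count was 17 without the 4 libraries with few detected genes, and also 17 without hsf-1 replicate 4 alone. The F test share of all genes in these 2 settings is not given here. Without the 4 libraries, calls over all genes rose from 10.6% to 21.9% for hsf-1 against L4440. For ash-2 against L4440 they fell from 19.6% to 15.5%. Of 19 members, 17 include some of nas-1, nas-5, nas-14 and nas-22, whose place among the tested genes rests on few libraries.

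Under ash-2 RNAi most tested astacins fell and nas-3 rose. Of 19 members, 11 were called lower against L4440 (15.5% of all genes were) and 1 was called higher (4.17% of all genes, and 19.6% in either direction). The lower ones were nas-9, nas-10, nas-11, nas-15, nas-22, nas-30, nas-31, nas-32, nas-33, nas-37 and nas-38. nas-22 was tested only because an L4440 library with an FPKM of at least 1 brought it to the filter, so it adds nothing to the 11. The median log2 change of the 19 was -1.06, against -0.32 over all genes tested, and 18 of 19 lay below 0. All 11 called lower also had every ash-2 library under every L4440 library, which held for 18.4% of all genes, and nas-3 had every ash-2 library above them, which held for 8.84%. Under quantile normalization the median of all genes was 0.06 and that of the nas genes -0.34, with 13 of 19 below 0, 5 called lower and 2 called higher, nas-3 and nas-39 (log2 change 0.42, adjusted p = 0.0477). In that scaling 22.6% of all genes were called, and 44.7% of all calls were lower, against 78.8% without it. Single libraries moved the number of calls: it was 5 with ash-2 replicate 1 left out, and 7 with ash-2 replicate 3, L4440 replicate 1 or L4440 replicate 2 left out. Shares of all genes with a single library left out are not given here. With the number of detected genes as a covariate 3 were lower (nas-9, nas-15 and nas-33) and 2 higher (nas-3 and nas-5), with a median change of -0.26 over the nas genes and 13 of 19 below 0, against a median of 0.26 over all genes. With the 4 libraries of few detected genes left out, 4 were lower (nas-9, nas-10, nas-15 and nas-33) and 1 higher (nas-3), with a nas median of -0.70 against 0.07 over all genes. Of all genes 15.5% were called there in either direction. The ash-2 libraries that stayed still had fewer detected genes than any L4440 library. Over all 17 libraries, detected genes ran from 9401 to 11189 under ash-2 RNAi and from 11459 to 12664 in L4440 animals. These ranges lay apart, so the covariate fit cannot fully separate the RNAi group from the number of detected genes. Whether ash-2 RNAi itself lowered that number was not tested.

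**Figure D1:**
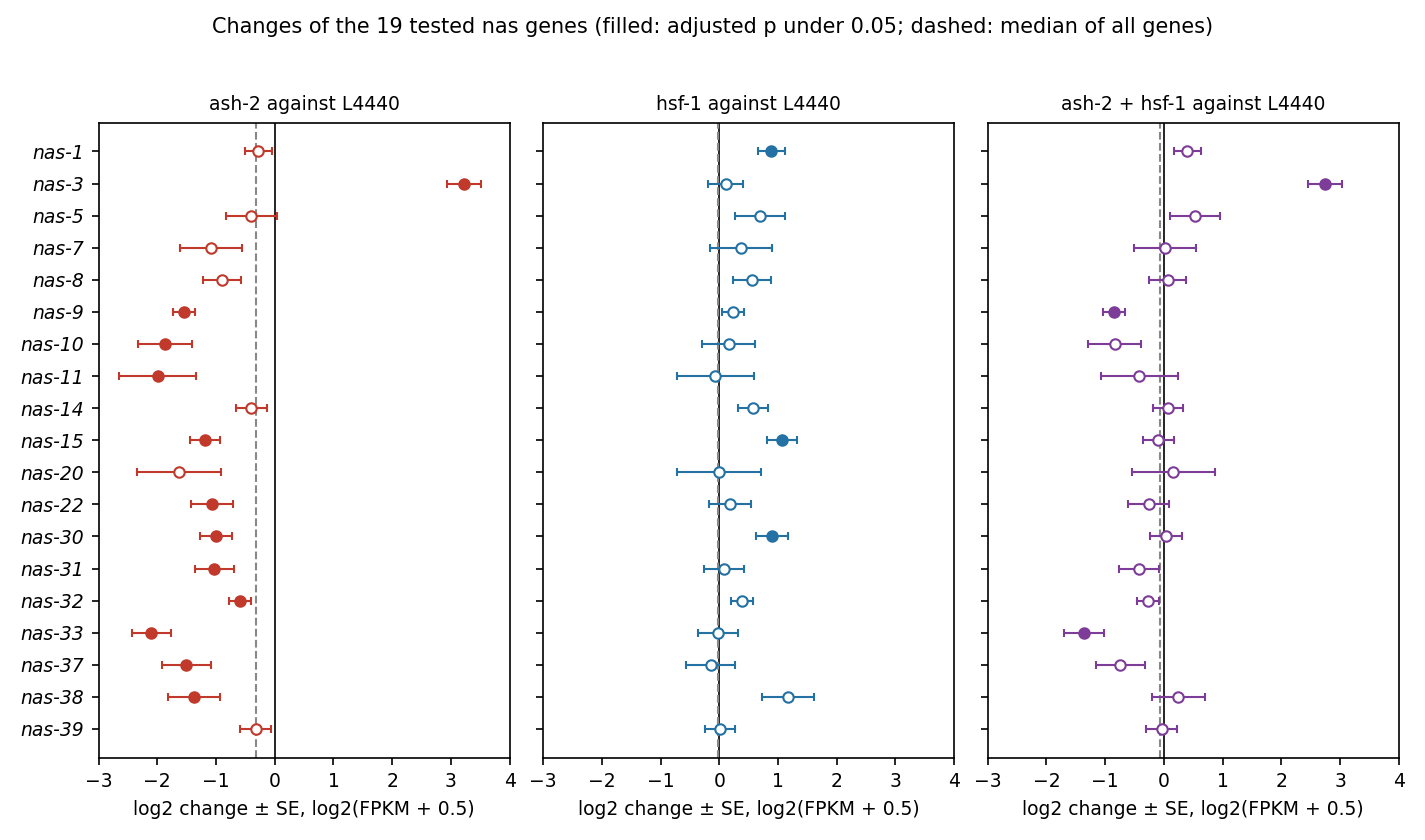
Log2 change with its standard error of the 19 tested nas genes, on the log2(FPKM + 0.5) scale, in ash-2, hsf-1 and ash-2 + hsf-1 animals against L4440 animals. Filled points passed an adjusted p of 0.05 and the dashed line is the median of all genes tested; nas-3 lies far to the right under ash-2 and under both clones, and 11 filled points lie left of 0 under ash-2.

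Among members 1 to 5, nas-3 stood apart (K06A4.1, chromosome V, 9478163 to 9479601, plus strand, 4 exons and 292 codons). Its level was 11.3, 19.03, 21.1 and 16.8 FPKM in ash-2 replicates 1 to 4, 1.46, 1.26, 0.982 and 2.48 FPKM in hsf-1 replicates 1 to 4 and 11.3, 19.4, 10.1 and 8.65 FPKM in ash-2 + hsf-1 replicates 1 to 4. In L4440 replicates 1 to 5 it was 0.719, 1.11, 1.44, 1.52 and 2.19 FPKM. All 8 libraries that received ash-2 RNAi were far above all 9 that did not. nas-3 rose under ash-2 RNAi 9.34-fold on the log2(FPKM + 0.5) scale (log2 change 3.22 ± 0.29, adjusted p = 1.6e-06). It also rose under both clones (log2 change 2.74 ± 0.29, adjusted p = 1.16e-05) and under both clones against hsf-1 alone (log2 change 2.63 ± 0.31, adjusted p = 0.000137). With hsf-1 RNAi alone it did not pass (log2 change 0.11 ± 0.29, adjusted p = 0.861), and the 95% interval of that change was -0.51 to 0.73. Its ash-2 call held in 28 of 28 alternative settings, at a log2 change of 3.33 without the 4 libraries with few detected genes.

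nas-1, another plain member, was low throughout. It measured 0.514, 0.354, 0.608 and 0.206 FPKM in the ash-2 libraries, 1.07, 1.08, 2.79 and 1.56 FPKM in the hsf-1 libraries and 1.17, 0.918, 0.82 and 0.914 FPKM in the ash-2 + hsf-1 libraries, against 0.486, 0.748, 0.869, 0.425 and 0.529 FPKM in the L4440 libraries. All hsf-1 libraries lay above all L4440 libraries, while those of the other RNAi groups overlapped with L4440. It rose under hsf-1 RNAi (log2 change 0.88 ± 0.23, adjusted p = 0.0184). The call was lost without hsf-1 replicate 3 (log2 change 0.65, adjusted p = 0.0821) and without L4440 replicate 4 (log2 change 0.82, adjusted p = 0.0528), and under quantile normalization (log2 change 0.69, adjusted p = 0.153). nas-5, the remaining tested member of this subgroup, averaged 0.352 ± 0.414 FPKM in ash-2, 1.29 ± 0.702 in hsf-1 and 1.19 ± 0.879 in ash-2 + hsf-1 animals, against 0.535 ± 0.195 in L4440 animals, and passed in none of the comparisons. Its libraries ranged over 0 to 0.795 FPKM in ash-2, 0.261 to 1.83 in hsf-1 and 0.0876 to 2.22 in ash-2 + hsf-1 animals, against 0.385 to 0.8495 FPKM in L4440 animals. nas-1 and nas-5 reached an FPKM of 1 only in libraries that received hsf-1 RNAi, so their place among the tested genes rests on those libraries.

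Among members 6 to 15, which carry ShKT domains, 7 of 10 were tested and 4 fell under ash-2 RNAi. nas-9 (C37H5.9, chromosome V, 4836027 to 4840013, minus strand, 10 exons and 546 codons) was at 4.91, 9.51, 8.73 and 9.65 FPKM in the ash-2 libraries and 30.7, 27.9, 29.9 and 25.9 FPKM in the hsf-1 libraries. It was at 15.6, 14.4, 11.8 and 11.4 FPKM in the ash-2 + hsf-1 libraries and 24.8, 25.9, 23.2, 23.4 and 23.6 FPKM in the L4440 libraries. The 4 ash-2 libraries were the lowest of the 17, those with both clones came next, and neither range overlapped with that of L4440 or hsf-1. nas-9 fell to 0.342 of the L4440 level under ash-2 RNAi on the log2(FPKM + 0.5) scale (log2 change -1.55 ± 0.19, adjusted p = 1.77e-05). It also fell under both clones (log2 change -0.85 ± 0.19, adjusted p = 0.00889), and it was higher with both clones than with ash-2 alone (log2 change 0.70 ± 0.20, adjusted p = 0.0256) and lower than with hsf-1 alone (log2 change -1.08 ± 0.20, adjusted p = 0.00252). The falls against L4440 and the fall against hsf-1 held in 28 of 28 alternative settings. The difference between both clones and ash-2 alone was lost without ash-2 replicate 1 (log2 change 0.49, adjusted p = 0.0778), without ash-2 + hsf-1 replicate 1 (log2 change 0.62, adjusted p = 0.0775) and without ash-2 + hsf-1 replicate 2 (log2 change 0.66, adjusted p = 0.0685), and it did not pass in the other 13 libraries alone, those with many detected genes (log2 change 0.49, adjusted p = 0.083), under quantile normalization (log2 change 0.29, adjusted p = 0.281) or with detected genes as a covariate (log2 change 0.46, adjusted p = 0.0607). With the replicate number of the titles as a block this difference did not pass either. The authors' deposited table does not call it (q = 0.214).

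nas-15 (T04G9.2, chromosome X, 777721 to 780533, plus strand) moved in opposite directions with the clones. It was at 0.46, 0.959, 0.495 and 0.851 FPKM in the ash-2 libraries and 5.61, 4.85, 8.201 and 2.98 FPKM in the hsf-1 libraries. It was at 2.36, 2.202, 2.495 and 1.21 FPKM in the ash-2 + hsf-1 libraries and 2.36, 2.57, 2.33, 2.13 and 1.58 FPKM in the L4440 libraries. Every ash-2 library was under, and every hsf-1 library above, every L4440 library, while the libraries with both clones overlapped with L4440. It fell under ash-2 RNAi (log2 change -1.19 ± 0.26, adjusted p = 0.00319) and rose under hsf-1 RNAi (log2 change 1.07 ± 0.26, adjusted p = 0.0127). With both clones it did not pass against L4440 (log2 change -0.09 ± 0.26, adjusted p = 0.99), was higher than with ash-2 alone (log2 change 1.10 ± 0.28, adjusted p = 0.0111) and lower than with hsf-1 alone (log2 change -1.16 ± 0.28, adjusted p = 0.0117). Without hsf-1 replicate 3, its rise against L4440 (log2 change 0.86, adjusted p = 0.0627) and its difference between both clones and hsf-1 (log2 change -0.95, adjusted p = 0.0503) no longer passed. The ash-2 fall did not pass under quantile normalization (log2 change -0.44, adjusted p = 0.164). The difference between both clones and ash-2 did not pass under it (log2 change 0.46, adjusted p = 0.198) or in the 13 libraries with many detected genes (log2 change 0.75, adjusted p = 0.0927).

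nas-10 (K09C8.3, chromosome X, 10960914 to 10963503, minus strand) was at 0.0762, 0.43, 0.242 and 0.317 FPKM in the ash-2 libraries and 4.34, 4.49, 3.98 and 0.333 FPKM in the hsf-1 libraries. It was at 1.44, 1.88, 0.503 and 0.7299 FPKM in the ash-2 + hsf-1 libraries and 3.35, 3.67, 1.67, 1.62 and 1.68 FPKM in the L4440 libraries. All ash-2 libraries lay under all L4440 libraries, and hsf-1 replicate 4 was more than an order of magnitude under the other hsf-1 libraries. It fell under ash-2 RNAi (log2 change -1.87 ± 0.46, adjusted p = 0.00736), a call lost with the number of detected genes as a covariate (log2 change -0.70, adjusted p = 0.0727).

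nas-11 (K11G12.1, chromosome X, 6713577 to 6716357, plus strand), the most abundant member, was at 3.804, 30.02, 5.71 and 31.1 FPKM in the ash-2 libraries and 80.95, 81.9, 64.8 and 11.7 FPKM in the hsf-1 libraries. It was at 53.7, 73.2, 16.2 and 30.04 FPKM in the ash-2 + hsf-1 libraries and 62.4, 66.96, 35.05, 51.99 and 40.95 FPKM in the L4440 libraries. Within each RNAi group the libraries with few detected genes were the lowest for this gene. The ash-2 fall passed (log2 change -1.995 ± 0.66, adjusted p = 0.0423), but without these 4 libraries it was smaller and did not (log2 change -0.70, adjusted p = 0.143). The call was lost with detected genes as a covariate (log2 change -0.10, adjusted p = 0.779). It was also lost without a filter on low values, and without ash-2 replicate 1, ash-2 replicate 3, hsf-1 replicate 3, ash-2 + hsf-1 replicate 1 or any 1 of the L4440 libraries (log2 change -2.12 to -1.48, adjusted p = 0.0501 to 0.175).

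nas-8 passed the F test (adjusted p = 0.0164) but no single comparison. It was at 0.166, 0.454, 0.4503 and 0.8698 FPKM in the ash-2 libraries and 2.48, 2.98, 3.45 and 0.666 FPKM in the hsf-1 libraries. It was at 1.42, 1.64, 0.824 and 1.71 FPKM in the ash-2 + hsf-1 libraries and 1.62, 1.51, 0.843, 1.29 and 1.27 FPKM in the L4440 libraries. Its changes were -0.90 ± 0.32 under ash-2 RNAi (adjusted p = 0.0565) and 0.56 ± 0.32 under hsf-1 RNAi (adjusted p = 0.346). nas-7, one of the genes of the pharyngeal grinder, averaged 1.07 ± 1.01 FPKM in ash-2, 3.69 ± 2.14 in hsf-1 and 2.56 ± 1.48 in ash-2 + hsf-1 animals, against 2.36 ± 0.9296 FPKM in L4440 animals, and passed in none of the comparisons. Its ranges were 0.132 to 2.08 FPKM in ash-2, 0.679 to 5.71 in hsf-1 and 0.894 to 4.495 in ash-2 + hsf-1 libraries, against 1.55 to 3.62 FPKM in L4440 libraries, and all overlapped with that of L4440. nas-14 averaged 0.542 ± 0.238 FPKM in ash-2, 1.62 ± 0.757 in hsf-1 and 0.917 ± 0.0789 in ash-2 + hsf-1 animals, against 0.876 ± 0.323 FPKM in L4440 animals, and passed in none either. Its ranges were 0.224 to 0.757 FPKM in ash-2, 0.639 to 2.31 in hsf-1 and 0.8005 to 0.969 in ash-2 + hsf-1 libraries, against 0.5897 to 1.36 FPKM in L4440 libraries.

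**Figure D2:**
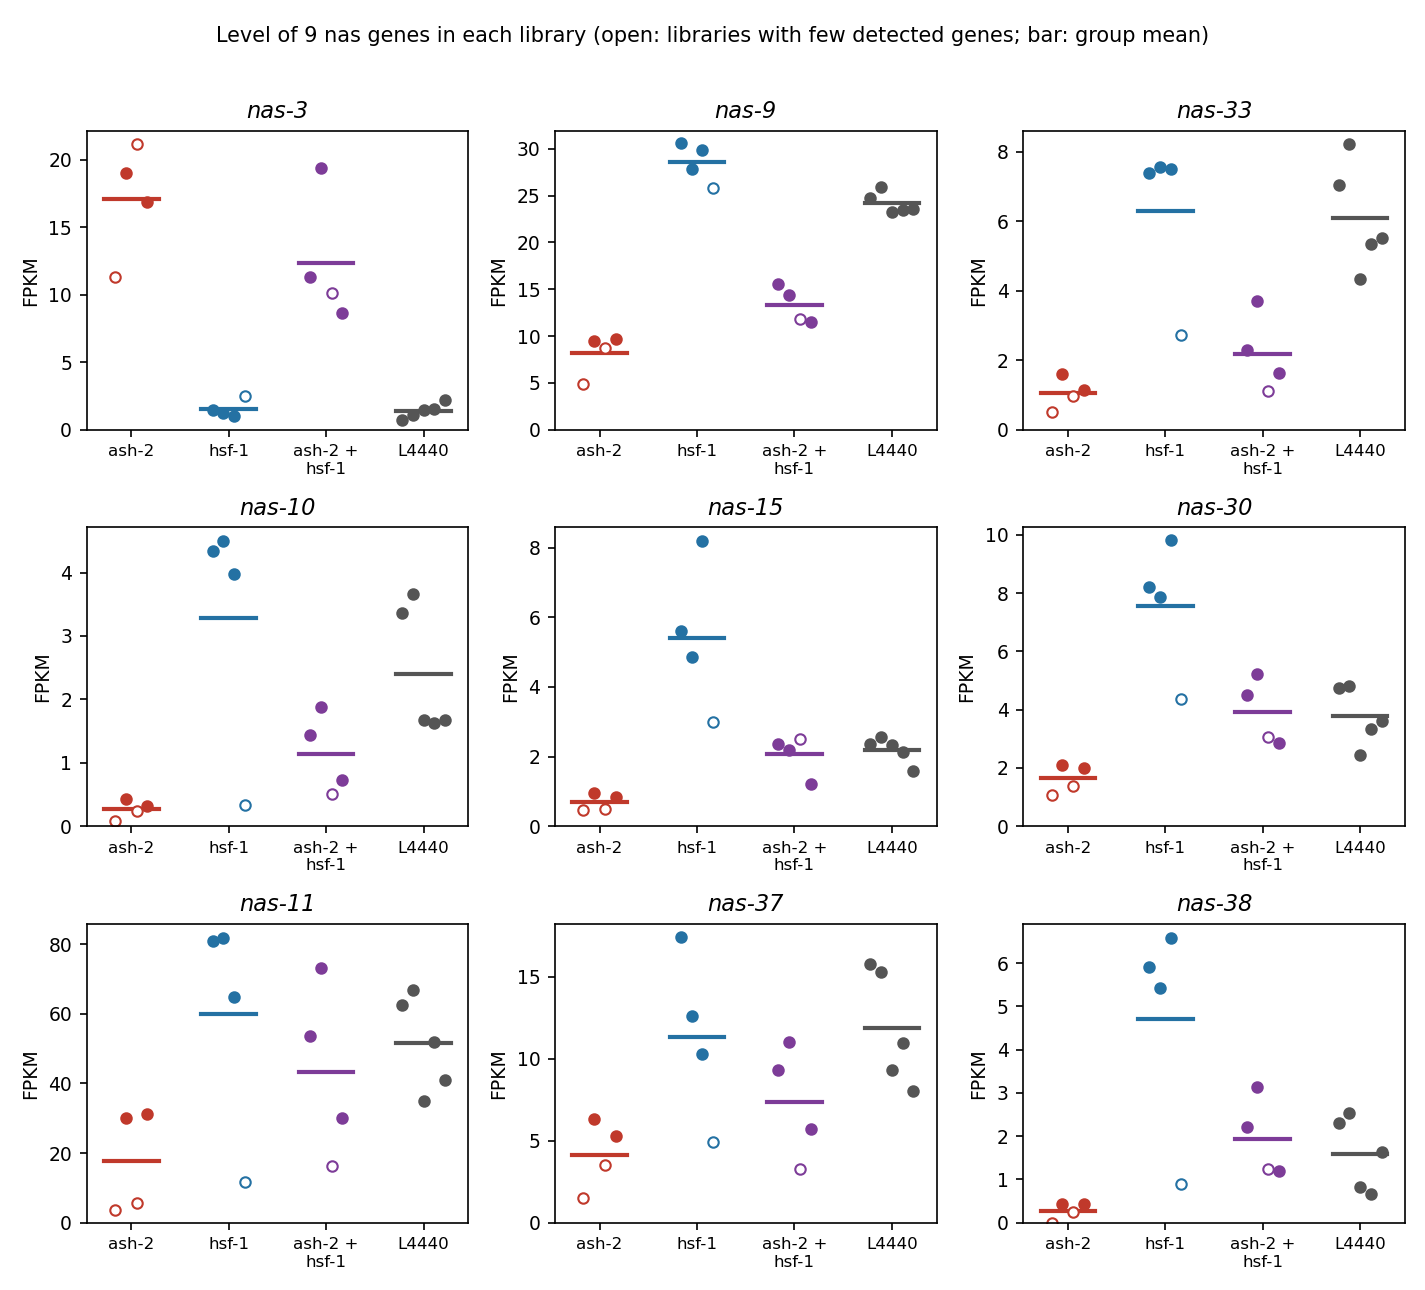
FPKM of 9 nas genes in each library of the ash-2, hsf-1, ash-2 + hsf-1 and L4440 groups, with a bar at the group mean and open circles for the 4 libraries with few detected genes. nas-3 is high in both groups that received ash-2 RNAi, nas-9 and nas-33 are low in both, and open circles lie at or near the bottom of their groups for nas-10, nas-11 and nas-37.

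Of members 16 to 30 only 3 of 13 were tested. nas-30 was at 1.06, 2.11, 1.39 and 1.98 FPKM in the ash-2 libraries and 8.2, 7.87, 9.82 and 4.37 FPKM in the hsf-1 libraries. It was at 4.52, 5.21, 3.07 and 2.84 FPKM in the ash-2 + hsf-1 libraries and 4.75, 4.79, 2.45, 3.35 and 3.59 FPKM in the L4440 libraries. Like nas-15, it fell under ash-2 RNAi (log2 change -1.003 ± 0.27, adjusted p = 0.0141) and rose under hsf-1 RNAi (log2 change 0.89 ± 0.27, adjusted p = 0.0442), though hsf-1 replicate 4 lay within the L4440 range. With both clones it was higher than with ash-2 alone (log2 change 1.04 ± 0.29, adjusted p = 0.019) and did not pass against L4440 (log2 change 0.04 ± 0.27, adjusted p = 0.997). The ash-2 fall was lost without ash-2 replicate 1 (log2 change -0.86, adjusted p = 0.0594), under quantile normalization (log2 change -0.33, adjusted p = 0.162), with detected genes as a covariate (log2 change -0.38, adjusted p = 0.121) and in the 13 libraries with many detected genes (log2 change -0.72, adjusted p = 0.0879). The hsf-1 rise was lost with a pseudocount of 0.1, with no filter, and without any 1 of hsf-1 replicates 1, 2 and 3, L4440 replicates 3, 4 and 5, ash-2 replicates 3 and 4, and ash-2 + hsf-1 replicate 1 (log2 change 0.76 to 0.89, adjusted p = 0.0519 to 0.165). This rise was also lost with the replicate number of the titles as a block. The difference between both clones and ash-2 was lost without ash-2 replicate 1 or 3 or ash-2 + hsf-1 replicate 1 or 2 (log2 change 0.90 to 0.99, adjusted p = 0.054 to 0.0691). It was lost as well under quantile normalization (log2 change 0.45, adjusted p = 0.0789) and in the 13 libraries with many detected genes (log2 change 0.84, adjusted p = 0.0642).

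nas-22 was at 0, 0.0591, 0 and 0.243 FPKM in the ash-2 libraries and 1.22, 1.81, 0.938 and 0.0836 FPKM in the hsf-1 libraries. It was at 0.334, 1.25, 0.124 and 0.556 FPKM in the ash-2 + hsf-1 libraries and 0.634, 0.859, 1.06, 0.372 and 0.624 FPKM in the L4440 libraries, so only 4 of 17 libraries reached 1. It was the member just inside the filter. Of these libraries 2 were hsf-1, 1 was ash-2 + hsf-1, 1 was L4440 and 0 were ash-2. Without its L4440 library nas-22 would not have been tested, so its ash-2 call adds nothing to the 11 called lower. Its ash-2 fall passed narrowly (log2 change -1.06 ± 0.35, adjusted p = 0.0439) and was lost without any 1 of ash-2 replicates 1, 2 and 3, L4440 replicates 1, 2, 3 and 5, hsf-1 replicates 1 and 3, and ash-2 + hsf-1 replicate 1 (log2 change -1.08 to -0.97, adjusted p = 0.0514 to 0.12). It was lost too with a pseudocount of 1, with no filter, with library weights, under quantile normalization (log2 change -0.34, adjusted p = 0.346), with detected genes as a covariate (log2 change -0.29, adjusted p = 0.46) and in the 13 libraries with many detected genes (log2 change -0.88, adjusted p = 0.0705). A block by the replicate number of the titles lost it as well. nas-20, its neighbour on chromosome V, varied widely within groups, at 0.944 to 6.71 FPKM in ash-2, 2.24 to 22.03 in hsf-1 and 2.88 to 37.2 in ash-2 + hsf-1 libraries, against 5.89 to 15.7 FPKM in L4440 libraries. It averaged 3.75 ± 3.01 FPKM in ash-2, 13.1 ± 9.296 in hsf-1 and 16.1 ± 15.1 in ash-2 + hsf-1 animals, against 10.5 ± 4.04 FPKM in L4440 animals. Its ash-2 change of -1.63 ± 0.71 did not pass (adjusted p = 0.121).

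Both members of the pair nas-31 and nas-32 were tested and both fell under ash-2 RNAi. nas-31 was at 0.2299, 0.779, 0.522 and 0.766 FPKM in the ash-2 libraries and 2.18, 2.42, 2.68 and 0.551 FPKM in the hsf-1 libraries. It was at 1.48, 2.15, 0.546 and 0.676 FPKM in the ash-2 + hsf-1 libraries and 1.503, 1.9, 1.85, 1.72 and 1.28 FPKM in the L4440 libraries. The fall (log2 change -1.03 ± 0.33, adjusted p = 0.0388) was lost without ash-2 replicate 1 or 3 or any 1 of L4440 replicates 1 to 4 (log2 change -1.05 to -0.85, adjusted p = 0.0648 to 0.144). It was lost with no filter too, and the change was smaller under quantile normalization (log2 change -0.25, adjusted p = 0.321) and with detected genes as a covariate (log2 change -0.19, adjusted p = 0.498). In the 13 libraries with many detected genes it did not pass either (log2 change -0.75, adjusted p = 0.0766). nas-32 was at 0.526, 0.933, 0.791 and 0.995 FPKM in the ash-2 libraries and 2.09, 2.31, 2.26 and 1.598 FPKM in the hsf-1 libraries. It was at 1.201, 1.13, 1.29 and 0.863 FPKM in the ash-2 + hsf-1 libraries and 1.62, 1.997, 1.14, 1.09 and 1.54 FPKM in the L4440 libraries. Its fall was the smallest of the 11 (log2 change -0.59 ± 0.19, adjusted p = 0.0395), and under quantile normalization the direction turned round (log2 change 0.17, adjusted p = 0.601). It was lost without ash-2 replicate 1 or 3, L4440 replicate 1, 2 or 5, hsf-1 replicate 1 or 2, or ash-2 + hsf-1 replicate 1 (log2 change -0.59 to -0.47, adjusted p = 0.0502 to 0.154). It did not pass with library weights, with detected genes as a covariate (log2 change -0.34, adjusted p = 0.175) or in the 13 libraries with many detected genes (log2 change -0.41, adjusted p = 0.255). nas-32 was also lower with both clones than with hsf-1 alone (log2 change -0.66 ± 0.20, adjusted p = 0.049). That call was lost when any 1 of 14 libraries was left out, all but L4440 replicate 2, ash-2 replicate 1 and hsf-1 replicate 4 (log2 change -0.71 to -0.58, adjusted p = 0.057 to 0.141), and under quantile normalization (log2 change -0.34, adjusted p = 0.382), a pseudocount of 0.1 and both other filters. With the replicate number of the titles as a block, neither this nas-32 call nor its ash-2 fall passed.

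Of the 4 genes named nas-33 to nas-38, which have EGF-like, CUB and thrombospondin-type domains, nas-33, nas-37 and nas-38 were tested and fell under ash-2 RNAi. The numbers between them belong to astacins under other names, hch-1 and dpy-31. Under ash-2 RNAi hch-1 rose, and dpy-31 was lower but did not pass (log2 change -0.84 ± 0.45, adjusted p = 0.196). Their values are given with those of toh-1. nas-33 (K04E7.3, chromosome X, 6451698 to 6455257, minus strand, 19 exons and 644 codons) was at 0.506, 1.604, 0.969 and 1.14 FPKM in the ash-2 libraries and 7.38, 7.57, 7.498 and 2.72 FPKM in the hsf-1 libraries. It was at 2.28, 3.71, 1.099 and 1.63 FPKM in the ash-2 + hsf-1 libraries and 7.04, 8.22, 4.34, 5.33 and 5.51 FPKM in the L4440 libraries. Both groups that received ash-2 RNAi lay under the whole L4440 range, and hsf-1 animals overlapped with it. nas-33 fell to 0.233 of the L4440 level under ash-2 RNAi on the log2(FPKM + 0.5) scale (log2 change -2.10 ± 0.34, adjusted p = 0.000208), a call that held in 28 of 28 alternative settings. It also fell under both clones (log2 change -1.36 ± 0.34, adjusted p = 0.0154), except without ash-2 + hsf-1 replicate 3 (log2 change -1.14, adjusted p = 0.062). It was lower with both clones than with hsf-1 alone (log2 change -1.34 ± 0.35, adjusted p = 0.0226). This last call was lost without any 1 of hsf-1 replicates 1, 2 and 3 and ash-2 + hsf-1 replicates 3 and 4 (log2 change -1.26 to -1.12, adjusted p = 0.0543 to 0.0823).

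nas-37 (C17G1.6, chromosome X, 9944844 to 9949063, minus strand), which is needed to shed the cuticle, was at 1.51, 6.33, 3.52 and 5.28 FPKM in the ash-2 libraries and 17.4, 12.6, 10.3 and 4.95 FPKM in the hsf-1 libraries. It was at 9.31, 11.04, 3.31 and 5.71 FPKM in the ash-2 + hsf-1 libraries and 15.8, 15.3, 9.31, 10.98 and 8.07 FPKM in the L4440 libraries. All ash-2 libraries were under all L4440 libraries. The fall (log2 change -1.51 ± 0.42, adjusted p = 0.0166) was lost without ash-2 replicate 1 (log2 change -1.15, adjusted p = 0.0763) and without the 4 libraries with few detected genes (log2 change -0.93, adjusted p = 0.0508), and the change was smallest with detected genes as a covariate (log2 change -0.41, adjusted p = 0.181). Its changes under hsf-1 RNAi (-0.14 ± 0.42) and under both clones (-0.74 ± 0.42) did not pass (adjusted p = 0.868 and 0.408).

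nas-38 (F57C12.1, chromosome X, 558157 to 563708, plus strand), the gene of molt-associated quiescence, was at 0, 0.434, 0.244 and 0.424 FPKM in the ash-2 libraries and 5.91, 5.43, 6.58 and 0.893 FPKM in the hsf-1 libraries. It was at 2.21, 3.14, 1.23 and 1.196 FPKM in the ash-2 + hsf-1 libraries and 2.29, 2.54, 0.831, 0.674 and 1.65 FPKM in the L4440 libraries. The 3 hsf-1 libraries with many detected genes were above every other library, and the fourth lay within the L4440 range. nas-38 fell under ash-2 RNAi (log2 change -1.38 ± 0.45, adjusted p = 0.0393), and it was higher with both clones than with ash-2 alone (log2 change 1.62 ± 0.47, adjusted p = 0.0262). The ash-2 fall was lost without ash-2 replicate 1 or 3 or L4440 replicate 1, 2 or 5 (log2 change -1.37 to -1.18, adjusted p = 0.0686 to 0.137). It was lost with a pseudocount of 1, with no filter and with library weights as well, and the change was smaller under quantile normalization (log2 change -0.61, adjusted p = 0.145), with detected genes as a covariate (log2 change -0.26, adjusted p = 0.51) and in the 13 libraries with many detected genes (log2 change -1.07, adjusted p = 0.0645). The difference from ash-2 alone was lost without ash-2 replicate 1 or 3 or ash-2 + hsf-1 replicate 1 or 2 (log2 change 1.41 to 1.62, adjusted p = 0.0577 to 0.0884) and with the covariate (log2 change 0.69, adjusted p = 0.0801). Its hsf-1 change did not pass with all 17 libraries (log2 change 1.17 ± 0.45, adjusted p = 0.118) and did without the 4 libraries with few detected genes (log2 change 1.72, adjusted p = 0.00141).

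nas-39, the tolloid-like member and the longest at 928 codons, averaged 1.01 ± 0.397 FPKM in ash-2, 1.42 ± 0.502 in hsf-1 and 1.36 ± 0.545 in ash-2 + hsf-1 animals, against 1.37 ± 0.378 FPKM in L4440 animals. Its ranges were 0.5896 to 1.54 FPKM in ash-2, 0.719 to 1.88 in hsf-1 and 0.769 to 2.04 in ash-2 + hsf-1 libraries, against 0.948 to 1.89 FPKM in L4440 libraries. These levels stand beside the 4.93 FPKM of F38E9.1, which shares exon bases with it on the same strand. nas-39 passed in none of the comparisons with the values as deposited, and the 95% interval of its ash-2 change was -0.88 to 0.23.

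Under hsf-1 RNAi nas-1, nas-15 and nas-30 rose and no tested member was called lower in limma. These are 3 of 19 higher, against 7.72% of all genes, and 0 lower, against 2.91% (10.6% in either direction). nas-1 was tested only because its libraries with hsf-1 RNAi reached an FPKM of 1, so it had to be high there and its call adds nothing to that count. At an unadjusted p under 0.05, 5 of 19 members passed, nas-1 among them, against 2846 of 13084 genes in all. The median log2 change was 0.23, against -0.03 over all genes, with 15 of 19 above 0. In 2 members, nas-1 and nas-15, every hsf-1 library lay above every L4440 library (10.5% of all genes), and in 0 every one lay below (6.92%). nas-1 adds nothing to these 2 either. The count of calls rested on single libraries: it was 0 without hsf-1 replicate 3, 1 without L4440 replicate 4 and 6 without hsf-1 replicate 4 (shares of all genes not given here). With the 4 libraries of few detected genes left out 8 members were called higher, adding nas-5, nas-7, nas-8, nas-14 and nas-38 to the 3, and the median was 0.62 against 0.18 over all genes. In that setting 21.9% of all genes were called in either direction, and 18.5% of those calls were lower. nas-5, like nas-1, passed the filter only through libraries with hsf-1 RNAi. nas-14 reached an FPKM of 1 in 3 hsf-1 and 2 L4440 libraries and in no others. Without its hsf-1 libraries it would not have been tested, so its call adds nothing to the 8 either. With detected genes as a covariate nas-1, nas-15, nas-30 and nas-38 were called higher and nas-11 was called lower (log2 change -0.59, adjusted p = 0.0329), where 39.6% of all genes were called in either direction. The nas-1 call adds nothing to those called higher here, for the same reason.

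With both clones against L4440, nas-3 rose and nas-9 and nas-33 fell, and no other tested member passed (3.68% of all genes were called higher, 5.40% lower and 9.08% in either direction). The median log2 change was -0.03, against -0.07 over all genes, with 10 of 19 below 0. The ranges lay apart in the same direction for 1 member above (5.24% of all genes) and 2 below (7.41%). Leaving out the 4 libraries of few detected genes, these 3 still passed (13% of all genes did) and nas-5 was also called higher (log2 change 0.97, adjusted p = 0.00699). nas-5 reached an FPKM of 1 only in hsf-1 and ash-2 + hsf-1 libraries, so it was tested because of a group where it is high, and this call carries no weight of its own. With detected genes as a covariate nas-5 was again called higher and nas-37 lower (log2 change -0.56, adjusted p = 0.0454), where 18.7% of all genes were called in either direction.

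Set against ash-2 RNAi alone, animals on both clones had 4 members higher, nas-9, nas-15, nas-30 and nas-38, and 0 lower in limma (12.0% and 3.76% of all genes, 15.8% in either direction). The median log2 change was 0.80, against 0.27 over all genes, and 18 of 19 lay above 0. Every ash-2 + hsf-1 library was above every ash-2 library in 7 members (12.9% of all genes) and below in 0 (5.18% of all genes). At an unadjusted p under 0.05 in limma 10 of 19 members passed, against 3764 of 13084 genes in all. nas-3 did not pass here (log2 change -0.48 ± 0.31, adjusted p = 0.319), with a 95% interval of -1.14 to 0.18. The count of calls came to 1 when ash-2 replicate 1, ash-2 + hsf-1 replicate 1 or ash-2 + hsf-1 replicate 2 was left out, to 2 when ash-2 replicate 3 was, and to 7 when ash-2 + hsf-1 replicate 3 was (shares of all genes not given here). Leaving out the 4 libraries of few detected genes it was 2, nas-8 (log2 change 0.87, adjusted p = 0.0334) and nas-38 (log2 change 1.46, adjusted p = 0.024), where 14.8% of all genes were called.

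Set against hsf-1 RNAi alone, animals on both clones had 4 members lower, nas-9, nas-15, nas-32 and nas-33, and 1 higher, nas-3 (8.42% and 1.28% of all genes, 9.71% in either direction). The median log2 change was -0.50, against -0.04 over all genes, and 17 of 19 lay below 0. Every ash-2 + hsf-1 library was below every hsf-1 library in 3 members (8.77% of all genes) and above in 1 (2.31%). The count of calls was 2 without hsf-1 replicate 3, 10 without hsf-1 replicate 4, and 3 without any 1 of hsf-1 replicates 1 and 2 and ash-2 + hsf-1 replicates 3 and 4 (shares of all genes not given here). Leaving out the 4 libraries of few detected genes it was 10, of which 9 were lower, where 17.3% of all genes were called. The 3 comparisons with L4440 share their control libraries, and the others share libraries with them, so the comparisons are not independent of each other.

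Whether the effect of one clone differed in the presence of the other was tested by the interaction term, the ash-2 effect on the hsf-1 background minus the ash-2 effect on the L4440 background. In limma 0 of 19 members passed, 0 passed at an unadjusted p under 0.05, and the smallest unadjusted p was 0.1 (0.107% of all genes were called, 0.0153% as higher and 0.0917% as lower). Over all genes 833 of 13084 had an unadjusted p under 0.05. For nas-3 the term was -0.59 ± 0.43, with a 95% interval of -1.49 to 0.32. For nas-9 it was 0.47 ± 0.28, with an interval of -0.12 to 1.06, and for nas-15 0.03 ± 0.38, with an interval of -0.78 to 0.83.

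The nas levels moved with the number of detected genes. In ash-2 replicates 1 and 3, with 9401 and 9817 detected genes, the median level of the 19 tested members relative to the L4440 mean was -1.48 and -1.25 on the log2 scale, and that of all genes was -0.79 and -0.53. In ash-2 replicates 2 and 4, with 11170 and 11189 detected genes, the nas median was -0.73 and -0.68, while that of all genes was 0.07 in each. hsf-1 replicates 1 to 3, with 12804 to 13066 detected genes, had nas medians of 0.57 to 0.71, against -0.60 in hsf-1 replicate 4. Of the 19 members, 17 were lower in ash-2 replicates 1 and 3 than in both other ash-2 libraries (65.0% of all genes were), 17 were lower in hsf-1 replicate 4 than in the other hsf-1 libraries (74.5% of all genes), and 12 were lower in ash-2 + hsf-1 replicate 3 than in the others of its group (38.5%). nas-3 was not among the genes that followed this order: its highest ash-2 value, 21.1 FPKM, came from ash-2 replicate 3. The part of detected genes in the calls of the other members was not tested beyond the values without these libraries and with the covariate. For the ash-2 calls these settings cannot settle it, because the numbers of detected genes in ash-2 and L4440 libraries did not overlap.

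**Figure D3:**
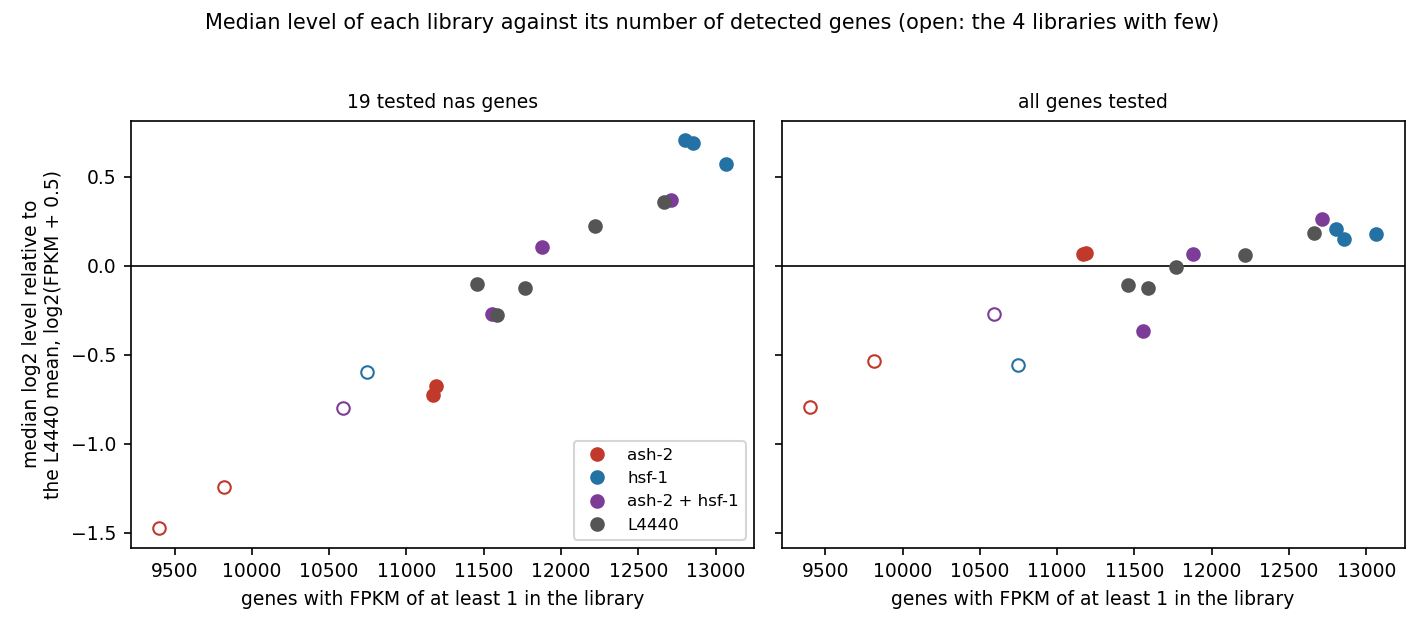
Median level of the 19 tested nas genes (left) and of all genes tested (right) in each library, relative to the L4440 mean on the log2(FPKM + 0.5) scale, against the number of genes with an FPKM of at least 1. The nas median runs between -1.48 in ash-2 replicate 1 and 0.71 in hsf-1 replicate 2.

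**Figure D4:**
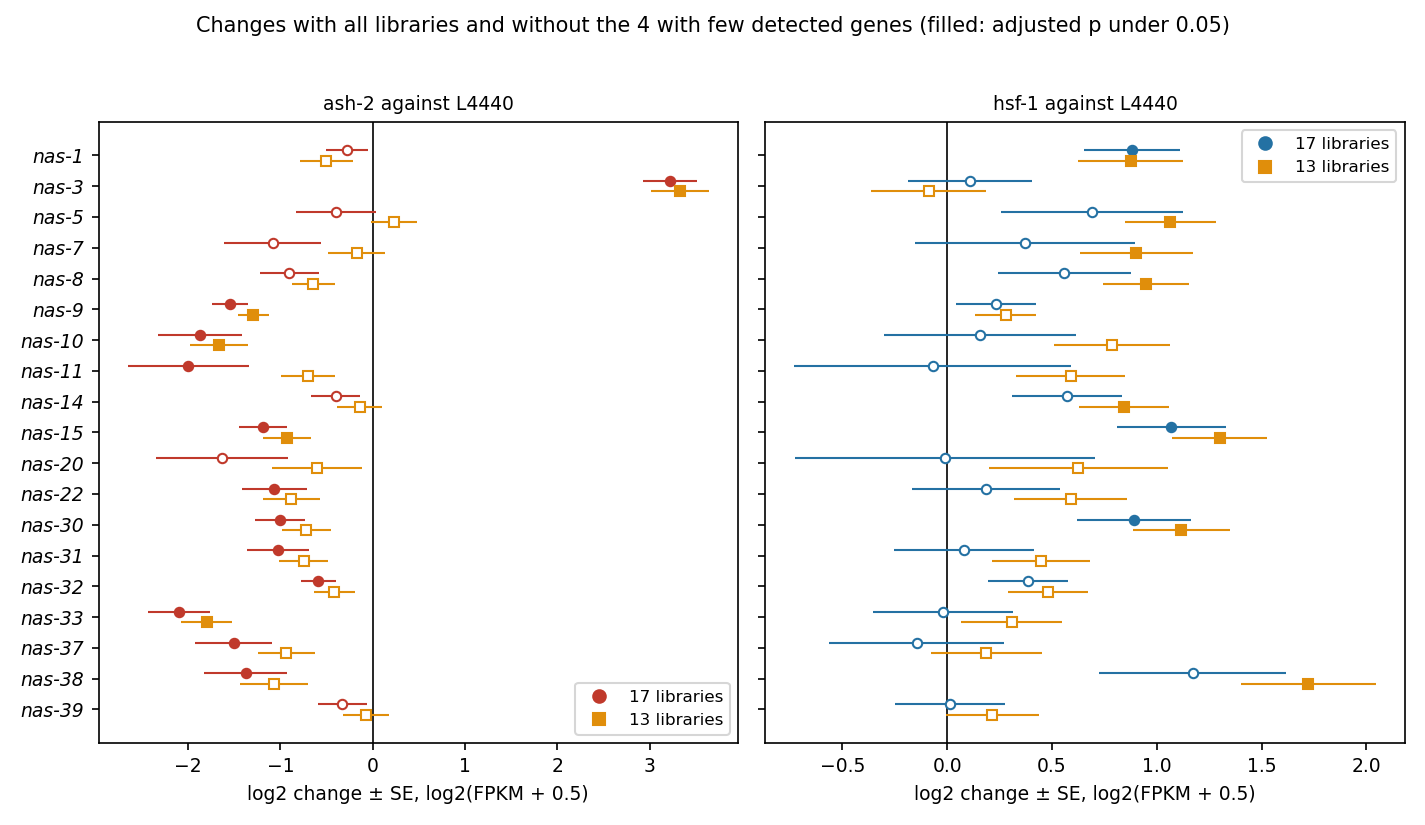
Log2 change with its standard error of the 19 tested nas genes in ash-2 (left) and hsf-1 (right) animals against L4440 animals, with all 17 libraries (circles) and with the 13 left without those with few detected genes (squares), where filled symbols passed an adjusted p of 0.05. nas-3, nas-9, nas-10, nas-15 and nas-33 stay filled under ash-2 RNAi, and 8 squares are filled under hsf-1 RNAi.

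3 astacins that carry other names were in the table. hch-1, the hatching protease, was at 30.99, 29.6, 22.3 and 22.4 FPKM in the ash-2 libraries and 4.94, 2.68, 1.31 and 3.05 FPKM in the hsf-1 libraries. It was at 13.8, 13.3, 4.399 and 3.46 FPKM in the ash-2 + hsf-1 libraries and 8.64, 6.75, 6.23, 6.57 and 8.18 FPKM in the L4440 libraries. Every ash-2 library lay above, and every hsf-1 library below, every L4440 library. hch-1 rose under ash-2 RNAi (log2 change 1.78 ± 0.38, adjusted p = 0.00242), fell under hsf-1 RNAi (log2 change -1.25 ± 0.38, adjusted p = 0.0434) and was lower with both clones than with ash-2 alone (log2 change -1.75 ± 0.40, adjusted p = 0.00569). Beside it, early embryo markers were 3 higher and 0 lower of 5 tested under ash-2 RNAi (4.17% and 15.5% of all genes). They were 0 higher and 2 lower under hsf-1 RNAi (7.72% and 2.91% of all genes). The sum of all 11 listed embryo markers was 10.6 to 17.8 FPKM in ash-2, 1.88 to 4.95 in hsf-1 and 3.33 to 9.66 in ash-2 + hsf-1 libraries, against 5.58 to 9.03 FPKM in L4440 libraries, and their part in the hch-1 values was not tested. hch-1 kept its calls against L4440 without the 4 libraries (log2 change 1.77, adjusted p = 0.0135 under ash-2 RNAi, log2 change -1.29, adjusted p = 0.0304 under hsf-1 RNAi), and lost the one against ash-2 alone (log2 change -1.51, adjusted p = 0.0529). Embryo markers were then 1 higher under ash-2 RNAi. dpy-31, which cleaves procollagen at its C-terminal end, passed in none of the comparisons (9.55 ± 6.03 FPKM in ash-2, 14.3 ± 5.02 in hsf-1, 13.2 ± 6.67 in ash-2 + hsf-1 and 15.2 ± 3.52 in L4440 animals), and neither did toh-1, a tolloid homologue. Under hsf-1 RNAi, toh-1 was called higher without the 4 libraries (log2 change 0.48, adjusted p = 0.0312) and with detected genes as a covariate (log2 change 0.47, adjusted p = 0.0141), and dpy-31 was called lower with the covariate (log2 change -0.47, adjusted p = 0.0334).

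Other extracellular proteases and their partners were compared in the same fit. Over all genes 4.17% were called higher and 15.5% lower under ash-2 RNAi, and 7.72% and 2.91% under hsf-1 RNAi. At an unadjusted p under 0.05 in limma, 4371 of 13084 genes passed under ash-2 RNAi and 2846 under hsf-1 RNAi. Of 12 tested metzincins outside the astacin family, the matrix metalloprotease zmp-4 (log2 change -0.85 ± 0.17, adjusted p = 0.00128) and the ADAMTS protease adt-3 (log2 change -1.21 ± 0.30, adjusted p = 0.00763) fell under ash-2 RNAi and 0 rose. Under hsf-1 RNAi 0 passed in limma, with 2 at an unadjusted p under 0.05. The median log2 change of the 12 was -0.52 under ash-2 RNAi and 0.20 under hsf-1 RNAi, against -0.32 and -0.03 over all genes. Without the 4 libraries adt-3 did not pass (log2 change -0.71, adjusted p = 0.0631), and 3 metzincins were then higher under hsf-1 RNAi. adt-3 did not pass with detected genes as a covariate (log2 change -0.52, adjusted p = 0.0757) or under quantile normalization (log2 change -0.46, adjusted p = 0.0796), while zmp-4 passed in both. Of 9 inhibitors and other proteases of molting, 4 fell under ash-2 RNAi and 1 rose. The Kunitz-type inhibitor bli-5 fell (log2 change -1.01 ± 0.22, adjusted p = 0.0028), as did the cathepsins cpl-1 (log2 change -0.47 ± 0.13, adjusted p = 0.016) and cpz-1 (log2 change -0.69 ± 0.22, adjusted p = 0.036). mlt-11, another Kunitz-type inhibitor, rose (log2 change 0.92 ± 0.26, adjusted p = 0.0161). Under quantile normalization bli-5 did not pass (log2 change -0.20, adjusted p = 0.453), while cpl-1, cpz-1 and mlt-11 did. With detected genes as a covariate cpz-1 did not pass (log2 change -0.60, adjusted p = 0.097), while bli-5, cpl-1 and mlt-11 did. Under hsf-1 RNAi 2 of the 9 fell, cpl-1 (log2 change -0.68 ± 0.13, adjusted p = 0.00232) and cpz-1 (log2 change -0.87 ± 0.22, adjusted p = 0.017), and 0 rose. Without the 4 libraries 2 of these 9 were lower and 1 higher under ash-2 RNAi, where cpz-1 no longer passed (log2 change -0.68, adjusted p = 0.118), and 2 were lower and 2 higher under hsf-1 RNAi, among them bli-5 (log2 change 0.76, adjusted p = 0.00838). Of 22 molting genes, 1 fell under ash-2 RNAi, mlt-3 (log2 change -1.54 ± 0.49, adjusted p = 0.0373), and 3 rose under hsf-1 RNAi, mlt-8, mlt-9 and lin-42, with list medians of -0.32 under ash-2 RNAi and 0.30 under hsf-1 RNAi. The mlt-3 fall did not pass with detected genes as a covariate (log2 change -0.155, adjusted p = 0.587). The lin-42 rise did not pass under quantile normalization (log2 change 0.81, adjusted p = 0.0975). Of 13 tested genes of the apical extracellular matrix, 5 rose under ash-2 RNAi and 0 fell, with cut-3 at 48.8 ± 16.2 FPKM in ash-2 animals and 2.18 ± 0.426 FPKM in L4440 animals (log2 change 4.17 ± 0.44, adjusted p = 4.33e-06). cut-5, lpr-3 and noah-2 were also among them, and lpr-3 was the 1 that rose under hsf-1 RNAi. Without the 4 libraries the apical matrix genes were 9 higher and 0 lower under ash-2 RNAi, and the molting genes 2 higher and 1 lower under ash-2 RNAi and 9 higher and 0 lower under hsf-1 RNAi. Of all genes 15.5% were called there under ash-2 RNAi and 21.9% under hsf-1 RNAi, in either direction.

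Markers of the tissues in a whole animal moved as well. The shares of all genes called were 4.17% higher and 15.5% lower under ash-2 RNAi, and 7.72% and 2.91% under hsf-1 RNAi. All 10 tested sperm markers fell under ash-2 RNAi, with a median log2 change of -2.96, and 0 passed in limma under hsf-1 RNAi, with 2 at an unadjusted p under 0.05. The 12 listed summed to 25.03 to 70.97 FPKM in ash-2, 514 to 754 in hsf-1 and 181 to 296 in ash-2 + hsf-1 libraries, against 340.0 to 418 FPKM in L4440 libraries. Of 11 epidermis markers, 2 rose and 4 fell under ash-2 RNAi and 4 rose under hsf-1 RNAi, with sums of 1878 to 2304 FPKM in ash-2, 2524 to 2959 in hsf-1 and 783 to 2824 in ash-2 + hsf-1 libraries, against 1532 to 1901 FPKM in L4440 libraries. The 783 FPKM came from ash-2 + hsf-1 replicate 4 alone, and the others of its group had 2406 to 2824 FPKM. Of 13 tested pharynx markers, 2 rose and 3 fell under ash-2 RNAi and 3 rose under hsf-1 RNAi, with sums of 143 to 177 FPKM in ash-2, 257 to 295 in hsf-1 and 170.3 to 203 in ash-2 + hsf-1 libraries, against 174 to 209 FPKM in L4440 libraries. The sperm sums of the 4 groups did not overlap, and their order was hsf-1 over L4440 over ash-2 + hsf-1 over ash-2. Group means ran in the same order for nas-9, nas-10, nas-11, nas-15, nas-22, nas-31, nas-32, nas-33 and nas-39. Unlike in the sperm sums, the hsf-1 and L4440 ranges overlapped in all of these but nas-15. In nas-15 the ash-2 + hsf-1 and L4440 ranges overlapped. The share of all genes with this order of means is not given here, and a likeness to the sperm markers was not tested. The other tested members had other orders, and nas-39 passed in none of the comparisons. For nas-33 the means of hsf-1 and L4440 animals were close (6.29 ± 2.38 and 6.09 ± 1.53 FPKM), with a log2 change of -0.02. Without the 4 libraries all 10 sperm markers were still lower under ash-2 RNAi. Of 10 intestine markers, 2 fell under ash-2 RNAi, and 2 rose and 3 fell under hsf-1 RNAi. Of 7 tested neuron markers, 1 rose under ash-2 RNAi and 3 under hsf-1 RNAi, and of 7 body wall muscle markers 0 passed in limma in either comparison (1 under ash-2 RNAi and 2 under hsf-1 RNAi had an unadjusted p under 0.05). The part of any of these tissues in the nas values was not tested.

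The authors' deposited tables cover 3 of the comparisons. For ash-2 against L4440 the authors' deposited table has a q-value under 0.05 for 1 higher and 13 lower of the 19 tested members, which include all 12 called here and add nas-8 (q = 0.00231) and nas-20 (q = 0.00811). For hsf-1 against L4440 the authors' deposited table has 5 higher and 0 lower, which include nas-1, nas-15 and nas-30 and add nas-5 (q = 0.046) and nas-38 (q = 0.0116). For both clones against ash-2 the authors' deposited table has 6 higher and 1 lower, with 3 of the 4 calls made here. It adds nas-8, nas-10 and nas-20 as higher and nas-3 as lower (q = 0.0468). The authors also mark genes as significant, which held for 13, 4 and 6 of the tested members in these comparisons. Not marked in spite of their q-values were nas-32 under ash-2 RNAi, nas-30 under hsf-1 RNAi and nas-3 with both clones against ash-2. The test behind these q-values is not stated.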

How the data were processed

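RNA of whole day 1 adults was sequenced in 17 libraries (ash-2, hsf-1 and ash-2 + hsf-1 RNAi, 4 each, and L4440, 5) after TRIzol extraction with a stranded mRNA kit, per the labels' protocols. The submitters' processing notes name cutadapt, HISAT2, StringTie, DESeq2 and build WBcel235, with no version or role. FPKM values per gene and library were made by the authors and deposited. The fold change, a ratio of group mean FPKM, its log2, and a p-value and q-value per gene were also computed by the authors and deposited for 3 comparisons.

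Genes that reached an FPKM of 1 in 4 or more libraries were tested. log2(FPKM + 0.5), which understates changes of low genes, was fitted over all 13084 genes and 17 libraries with limma 3.58.1 (lmFit and a robust eBayes with a trend, run in R 4.3.3), with Benjamini-Hochberg adjustment over all genes of a contrast and calls at an adjusted p under 0.05. Errors of changes are standard errors of that fit, and errors of levels are SDs. Tables were handled with Python 3.11.15 and pandas 2.3.3. The script was tested on simulated data. Coordinates are those of the RefSeq gene table of WBcel235, and lengths are those of the Ensembl annotation of the same build. Fragments per library were estimated from low FPKM values of genes within a set window, so the estimate is rough.

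All 35 members are accounted for: values of every library are given for members called in the F test or in any pairwise comparison, means and ranges for the other tested members, and the highest level for the rest. From each of 12 further gene lists the called genes with the smallest adjusted p are named, at most 4 per comparison. The members, the lists and the leaving out of 4 libraries were chosen with earlier results of these data known. Alternatives were 2 other pseudocounts, 2 other filters, 2 scalings, the leaving out of the 4 libraries, detected genes as a covariate, library weights, replicate numbers as a block and each library left out in turn. Sequences of the genes were not used here. Intervals cover the spread between libraries only.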

Additional observations from a re-analysis of the deposited data

Results flagged for a closer look

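2 values stood far from the other libraries of their group, both in hsf-1 replicate 4, 1 of the 4 libraries with few detected genes. nas-33 measured 2.72 FPKM there, against 7.38 to 7.57 FPKM in the other hsf-1 libraries, a gap of 0.96 of the group's range. nas-10 measured 0.333 FPKM there, against 3.98 to 4.49 FPKM in the others, a gap of 0.876 of the range. Both gaps exceed the 95% critical value of Dixon's test for 4 libraries. Of 76 groups of a tested member 2 did so, and chance gives about 1 in 20.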

How the results depend on the processing

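The calls of nas-3 and nas-9 against L4440 under ash-2 RNAi and under both clones, and of nas-33 under ash-2 RNAi, passed in all 28 alternative settings run for them. The number of members called moved with several settings, and the cause was not tested. With the 4 libraries of few detected genes left out it was 17 in the F test (11 as reported), 5 for ash-2 against L4440 (reported 12), 8 for hsf-1 against L4440 (reported 3), 2 for both clones against ash-2 (reported 4) and 10 for both clones against hsf-1 (reported 5). Of all genes 15.5%, 21.9%, 14.8% and 17.3% were called there in these pairwise comparisons, in the same order. With detected genes as a covariate it was 5 for ash-2 (3 lower and 2 higher, reported 11 and 1), 5 for hsf-1 (1 lower and 4 higher, reported 0 and 3) and 5 for both clones against L4440 (3 lower and 2 higher, reported 2 and 1). The covariate gave calls for 28.4%, 39.6% and 18.7% of all genes in these comparisons, in the same order. Under quantile normalization it was 7 for ash-2 against L4440 (22.6% of all genes) and 1 for both clones against ash-2 (17.4%). With library weights, whose estimation stopped before full convergence, it was 18 in the F test, 13 for hsf-1 against L4440, 11 for both clones against L4440, 13 for both clones against ash-2 and 14 for both clones against hsf-1. These weights raised the calls over all genes as well, to 43.8%, 49.5%, 29.1% and 56.7% in these pairwise comparisons, in the same order. Leaving out 1 library gave 9 to 17 in the F test, 5 to 13 for ash-2, 0 to 6 for hsf-1 and 2 to 3 for both clones against L4440, 1 to 7 for both clones against ash-2, 2 to 10 for both clones against hsf-1 and 0 to 0 for the interaction. Shares of all genes are not given here for these counts or for the F test in the alternative settings. Those counts can therefore not be read as particular to the nas genes. 1 single change turned round, nas-32 under ash-2 RNAi, at 0.17 under quantile normalization.

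With the replicate number of the titles as a block, the counts were 11 in the F test, 10 for ash-2, 2 for hsf-1 and 3 for both clones against L4440, 3 for both clones against ash-2, 4 for both clones against hsf-1 and 0 for the interaction. Over all genes the shares after the F test were 20%, 8.19%, 8.39%, 15.7%, 9.95% and 0.0535%, in the same order. With the number of the library descriptions as the block, both clones against ash-2 gave 8 (22.4% of all genes). The 24 pairs with the same title number correlated at -0.69 to 0.69 with a median of 0.23 (different numbers, -0.08), 14 of them over 0.1. For description numbers the median was 0.36 (different numbers, -0.09), with 14 of 22 over 0.1. 9 of 17 libraries correlated best with their own title number and 10 of 17 with their own description number, a hint from the data and not from the design. Since not every pair correlated over 0.1 and the labels do not say what a number marks, the numbers were not used to pair libraries. An FPKM of 1 in a tested member stood for an estimated 21.3 to 65.3 fragments, which limits what can be said of members near that level, such as nas-1 and nas-22.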

Other observations

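Among the 16 members under the filter, nas-18 was listed at 0 in all 17 libraries and 11 others never reached an FPKM of 1. nas-4, nas-6, nas-25 and nas-36 were the members just outside it, with an FPKM of at least 1 in 2 libraries each, and all of these libraries had received hsf-1 RNAi, alone or with ash-2. The highest untested value was 1.80 FPKM, for nas-6 in hsf-1 replicate 3. nas-36, known with nas-37 for cuticle shedding, was at 0, 0.124, 0 and 0.179 FPKM in the ash-2 libraries and 0.667, 0.3999, 1.04 and 0.207 FPKM in the hsf-1 libraries. It was at 0.329, 1.101, 0.118 and 0.695 FPKM in the ash-2 + hsf-1 libraries and 0.236, 0.827, 0.295, 0.106 and 0.3904 FPKM in the L4440 libraries. nas-25 was at 0.0284, 0.324, 0.0533 and 0.196 FPKM in the ash-2 libraries and 1.09, 0.861, 1.47 and 0.154 FPKM in the hsf-1 libraries, against 0.484, 0.318, 0.225, 0.253 and 0.172 FPKM in the L4440 libraries. The authors' deposited tables have a q-value under 0.05 for 2 of the untested members, nas-4 as lower under ash-2 RNAi (q = 0.0301) and nas-25 as higher under hsf-1 RNAi (q = 0.0186).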
